A study of Mus musculus with 6 samples.

Results

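The genes described here are 38 genes of DNA replication and of deoxynucleotide supply, found by their symbols in the deposited table of 47725 mouse genes. All 38 were present once and all 38 passed the filter on low counts that left 13928 genes for testing. RNA was sequenced from CD4+ T cells of wild type C57BL/6 mice, which were cultured from naive cells for 3 days with CKBA or with the solvent DMSO. CKBA is a derivative of AKBA, a boswellic acid of frankincense resin, and its dose is not in the labels. Both groups had 3 libraries and shared the same conditions, which drive the TH17 fate of helper T cells: 10% FBS, anti-CD28 at 2 μg/ml, anti-IFN-γ at 10 μg/ml, anti-IL-4 at 5 μg/ml, and rhTGF-β1, rmIL-6 and rmIL-23 at 10 ng/ml each. The labels give neither the age and number of the mice nor whether replicates came from separate cultures or mice. The p-values therefore weigh differences only against the scatter of these libraries, part of which may be technical.

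A dividing cell copies its genome once. Proteins of the origin recognition complex, CDC6 and CDT1 load the ring-shaped MCM helicase onto origins, and CDC45 and the GINS complex switch it on at the start of S phase. Polymerases then copy both strands while the PCNA clamp, set on DNA by replication factor C, holds them in place, and ribonucleotide reductase, thymidylate synthase and thymidine kinase supply the building blocks. Most of these genes are known targets of the E2F transcription factors, and naive T cells switch them on after activation, when they leave quiescence and start to divide rapidly.

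The labels name epidermis as the tissue and CD4+ T cells as the cell type. Summed over 8 T cell markers, expression was 1960 to 2150 CPM (counts scaled to the library total with TMM factors) with CKBA and 2560 to 2620 CPM with DMSO. Each marker's mean was lower with CKBA, by most in Cd28 (197 against 458 CPM) and by little in Lck (514 against 529 CPM). Of 8 keratinocyte markers, Krt14, Krt1, Lor, Ivl and Trp63 had no count in any library. The keratinocyte sum was 5.73 to 8.64 CPM with CKBA and 5.36 to 5.68 CPM with DMSO, and the B cell sum was 10.3 to 40.2 CPM with CKBA and 16.1 to 17.8 CPM with DMSO. The myeloid sum was 1.17 to 3.07 CPM with CKBA and 1.36 to 3.86 CPM with DMSO. For CD8 T and NK cells it was 27.3 to 32.4 CPM with CKBA and 35.2 to 45.7 CPM with DMSO. The part of these markers in the results was not tested. Library totals were 20622192 to 25331863 counts with CKBA and 19838347 to 20687649 with DMSO. Replicate 3 stood apart in both groups. Between replicates 1 and 2 of a group the counts differed by a mean chi-square per gene of 3.01 with CKBA and 3.33 with DMSO, where sampling alone gives about 1, and replicate 3 differed from them by 37.2 and 38.7 with CKBA and by 35.3 and 36.9 with DMSO.

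The study asked which transcripts CKBA changes in cells taking the TH17 fate. Replication genes were higher with CKBA: 28 of the 38 rose, 0 fell and 10 did not pass the test, at an adjusted p under 0.05 in edgeR (quasi-likelihood F test, Benjamini-Hochberg adjustment over all genes). Over all 13928 genes, 7.86% were called higher and 9.23% lower. The 10 that did not pass were Mcm3, Orc1, Gins1, Gins3, Gins4, Pola2, Rfc3, Fen1, Rpa1 and Rrm2. At an unadjusted p under 0.05, 31 members were higher and 0 lower. The share of all genes at that unadjusted threshold was not computed. DESeq2 called 30 higher, at 8.61% of all genes. All 38 estimates were above 0, against 50.5% of all genes. Their median log2 fold change was 0.41, with a range of 0.12 for Mcm3 to 0.83 for Rfc4, beside a median of 0.01 over all genes. In 30 members all 3 CKBA libraries lay above all 3 DMSO libraries, which held for 18.2% of all genes. In these bulk samples a larger share of cells in S phase and more of these transcripts per cell cannot be told apart.

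**Figure D1:**
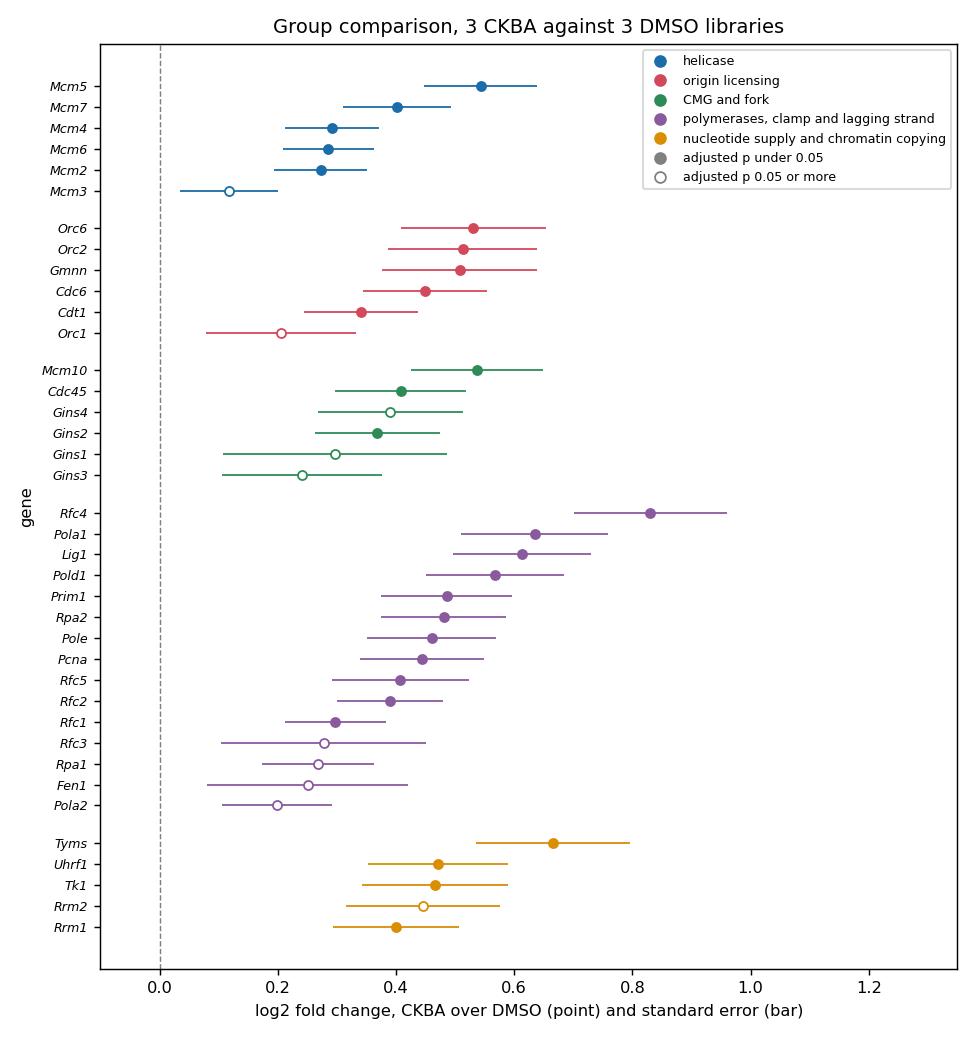
Log2 fold change of CKBA over DMSO for each of the 38 genes (horizontal axis), with bars of 1 standard error, grouped by role down the page. Filled points passed the test at an adjusted p under 0.05 (28 genes), open points did not (10 genes), and every point lies right of 0.

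Leaving out 1 library among replicates 1 and 2 ended nearly all single calls. The number of members called higher was 2 without CKBA replicate 1, 1 without CKBA replicate 2, 1 without DMSO replicate 1 and 1 without DMSO replicate 2, where 2.42%, 2.42%, 1.88% and 1.76% of all genes were called higher. At an unadjusted p under 0.05 by edgeR, 29, 30, 30 and 29 members were higher in these fits. The share of all genes at that unadjusted threshold was not computed in any fit. The members' median log2 fold changes were 0.38, 0.38, 0.38 and 0.40. The number called was 30 without CKBA replicate 3 and 27 without DMSO replicate 3, at 13.7% and 9.94% of all genes. When the counts of replicates 1 and 2 were added up within each group, 0 members were called higher by edgeR, while 15 had an unadjusted p under 0.05 and the median was 0.34, and 0.372% of all genes were called higher. With replicate 3 of both groups left out, 37 members were called higher and the median was 0.56, where 26.1% of all genes were called higher. Scatter in that fit comes only from the close replicates 1 and 2. On the authors' FPKM (a level corrected for transcript length and depth), limma called 16 members higher with a pseudocount of 0.1 and 16 with 1, at 6.76% and 6.42% of all genes. RLE size factors gave 26 members at 7.75% of all genes, no filter on low counts 29 at 4.77%, the replicate number as a block 30 at 13.8%, and scaling to total counts, chosen after seeing the data, 20 at 7.07%. Rfc4 was the only member called in each of the 6 fits that left out 1 library, with an adjusted p of at most 0.044 (edgeR's quasi-likelihood test). In the authors' deposited table, 23 of the 38 were higher with CKBA at an FDR under 0.05. Of these members, 22 were among the 28 called here. Mcm2, Mcm4, Mcm6, Cdt1, Gins2 and Rfc1 were called here but not there (FDR 0.119, 0.0885, 0.0951, 0.0559, 0.126 and 0.0868). Of all 47725 genes in that table, 2.4% were higher at that FDR, but 23224 had no count in any library. That share is thus not comparable with the shares of tested genes above.

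Levels differed between libraries of 1 group as well as between groups. Summed over the 38 genes, expression was 5466, 5346 and 4668 CPM in CKBA replicates 1, 2 and 3, and 3787, 3786 and 4240 CPM in DMSO replicates 1, 2 and 3. The groups did not overlap in this sum, and both libraries numbered 3 lay nearest to the other group. CKBA replicate 3 was the lowest CKBA library for 32 members and DMSO replicate 3 the highest DMSO library for 33 members, against 41.4% and 41.4% of all genes. CKBA replicate 3 was also the deepest library. The part of depth in these values was not tested.

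**Figure D2:**
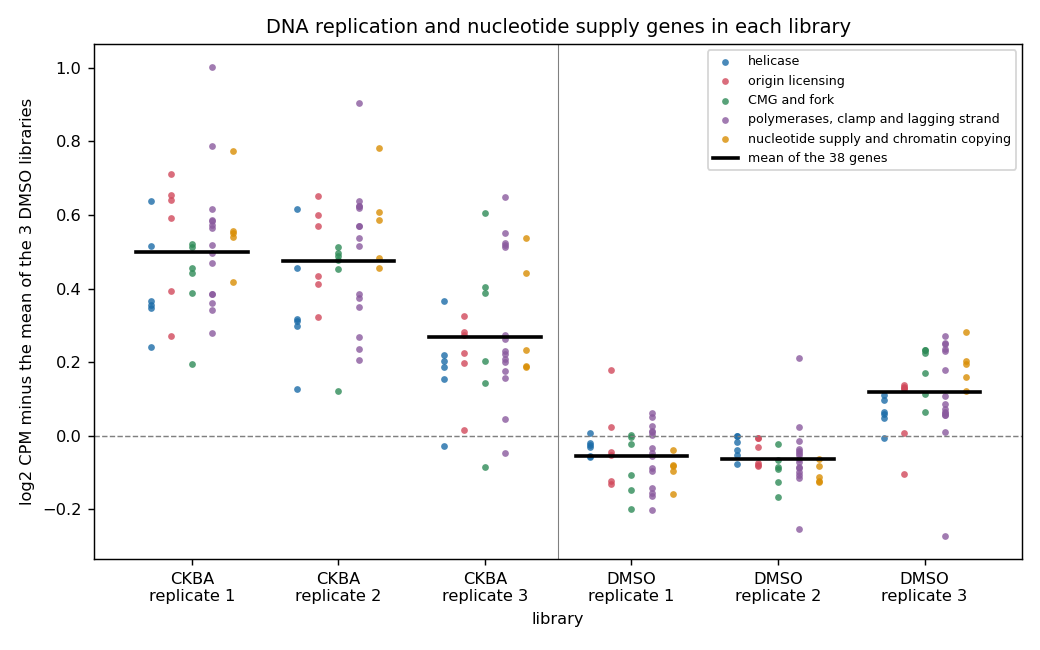
Log2 CPM of each of the 38 genes minus its mean over the 3 DMSO libraries (vertical axis), by library, coloured by role, with a black line at the mean of the 38 genes. The means are 0.50, 0.47 and 0.27 in CKBA replicates 1, 2 and 3 and -0.06, -0.06 and 0.12 in DMSO replicates 1, 2 and 3.

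Pairs of equal replicate number were therefore taken one by one, each as 1 library against 1 and so without a replicate check. In pair 1 the 38 genes were higher with CKBA by a mean of 0.56 on the log2 scale, with a range of 0.20 to 0.99, and all 38 were above 0. In pair 2 the mean was 0.54, with a range of 0.13 to 0.97, and again all 38 were above 0. In pair 3 the mean was 0.15, with a range of -0.31 to 0.50, and 32 were above 0. The share of all genes above 0 was 49.7%, 50.3% and 51.1% in pairs 1, 2 and 3. A difference of at least 1.25-fold upward was seen in 35, 33 and 4 members, against 22.8%, 23.7% and 17.2% of all genes, and 0 members were lower by that much in any pair, against 26.1%, 25.2% and 16.7%. The 6 members at or below 0 in pair 3 were Mcm3 (-0.02), Orc1 (-0.11), Gins1 (-0.31), Pola2 (-0.04), Fen1 (-0.05) and Rrm2 (-0.01). The 4 past 1.25-fold in pair 3 were Rfc4 (0.50), Orc2 (0.38), Lig1 (0.38) and Mcm10 (0.37). Counting error gave these single differences a standard error of 0.0189 to 0.162. Pair 3 gave the smallest of the 3 differences in 36 of 38 members. The share of all genes for which this held was not computed, and whether the pairs differ was not tested. Across the 38 genes, the order of the differences was alike in pairs 1 and 2 (Spearman's rho 0.78) and less alike between pair 3 and pair 1 or 2 (0.53 and 0.49), as a description over genes that share libraries.

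**Figure D3:**
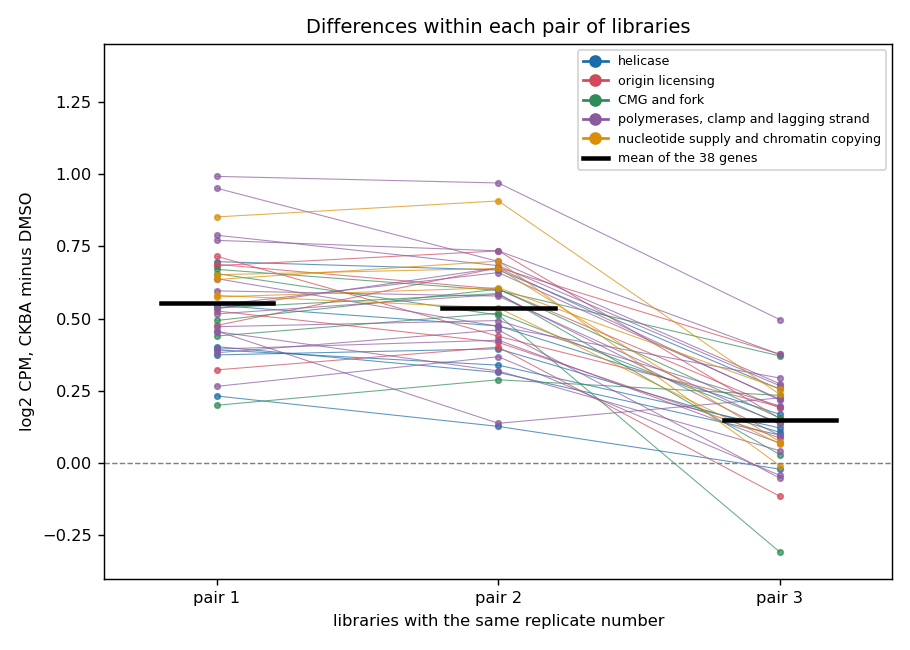
Log2 CPM of CKBA minus DMSO (vertical axis) within pairs 1, 2 and 3 of libraries with the same replicate number. Each thin line joins the 3 values of 1 gene, coloured by role, and black lines mark the means of 0.56, 0.54 and 0.15.

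The MCM helicase genes encode the 6 subunits of the ring that unwinds DNA. Of these, 5 rose and Mcm3 did not pass, with a median log2 fold change of 0.29. Mcm5 (ENSMUSG00000005410, GRCm38 chromosome 8, 75109569 to 75128439, plus strand) changed most. It had 299.9, 296 and 249 CPM in CKBA replicates 1, 2 and 3, against 185, 186 and 208 CPM in DMSO replicates 1, 2 and 3. All CKBA libraries were above all DMSO libraries, with a log2 fold change of 0.54 ± 0.10 (SE; adjusted p = 0.00957, edgeR's quasi-likelihood test), which was lost without CKBA replicate 2, DMSO replicate 1 or DMSO replicate 2 (up to 0.0597). Mcm7, Mcm4, Mcm6 and Mcm2 rose by 0.40, 0.29, 0.29 and 0.27, at adjusted p of 0.022, 0.0408, 0.0398 and 0.0497 in the same edgeR test. Each lost the call without any 1 library among replicates 1 and 2 (up to 0.104, 0.178, 0.176 and 0.192, edgeR). In the authors' deposited table Mcm7 passed (FDR 0.016), while Mcm4, Mcm6 and Mcm2 did not. Mcm3 had 312, 289 and 259 CPM with CKBA, against 266, 264 and 263 CPM with DMSO. CKBA replicate 3 was thus the lowest of the 6 libraries for Mcm3, and the groups overlapped (log2 fold change 0.12 ± 0.08, adjusted p = 0.371, edgeR). Per length, Mcm6 stood highest in the ring, at 120.3 ± 5.74 FPKM with CKBA and 99.6 ± 6.00 FPKM with DMSO, and Mcm2 lowest, at 31.8 ± 1.76 FPKM and 26.5 ± 1.56 FPKM (SD, n = 3 each).

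Estimates of 3 helicase genes ran from the lowest of the 38 (Mcm3) over Mcm6 to Mcm5, though differences between them were not tested. The promoters of these 3 genes, which all hold the E2F core, are shown. Each is 250 bases before to 50 bases after the start site, 5′ to 3′ on the gene's strand, from RefSeq on GRCm38.p6. They lie at chr8:75109259-75109558 (Mcm5, plus strand), chr1:128359656-128359955 (Mcm6, minus strand) and chr1:20820263-20820562 (Mcm3, minus strand). Capitals mark matches to the E2F core, searched on both strands as TTCCCGC, as the variant TTCGCGC, as the variant TTGCCGC and as the variant TTGGCGC, where matches may share bases with each other or with a CCAAT box. There were 3 matches in Mcm5, 5 in Mcm6 and 3 in Mcm3. Those in Mcm5 all lie before the start site, and those in Mcm3 all after it. Whether position goes with the fold change was not tested.
Mcm5: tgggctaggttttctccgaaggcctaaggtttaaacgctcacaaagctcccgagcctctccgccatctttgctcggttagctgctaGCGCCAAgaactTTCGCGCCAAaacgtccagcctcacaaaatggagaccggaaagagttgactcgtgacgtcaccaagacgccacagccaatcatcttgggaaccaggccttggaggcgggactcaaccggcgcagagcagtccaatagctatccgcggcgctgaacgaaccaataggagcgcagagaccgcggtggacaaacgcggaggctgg
Mcm6: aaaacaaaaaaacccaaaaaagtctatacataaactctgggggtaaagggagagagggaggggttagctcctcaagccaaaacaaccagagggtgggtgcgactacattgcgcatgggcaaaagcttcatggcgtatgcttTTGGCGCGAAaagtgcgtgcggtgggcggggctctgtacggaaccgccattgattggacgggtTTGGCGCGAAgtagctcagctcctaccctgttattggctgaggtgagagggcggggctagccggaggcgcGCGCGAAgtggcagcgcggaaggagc
Mcm3: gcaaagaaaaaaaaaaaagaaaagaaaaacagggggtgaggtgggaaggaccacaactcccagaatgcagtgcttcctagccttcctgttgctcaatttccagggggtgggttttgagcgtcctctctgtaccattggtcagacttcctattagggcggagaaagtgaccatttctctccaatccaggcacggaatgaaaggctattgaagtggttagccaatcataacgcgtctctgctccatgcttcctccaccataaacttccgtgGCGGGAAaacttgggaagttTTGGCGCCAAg

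Origin licensing genes were higher too: 5 of 6 rose, and the median log2 fold change was 0.48. Orc6, a subunit of the origin recognition complex (ENSMUSG00000031697, chromosome 8, 85299632 to 85308278, plus strand), had 51.2, 51.7 and 39.9 CPM with CKBA, against 31.9, 31.1 and 35.9 CPM with DMSO. The groups were separate, with CKBA replicate 3 and DMSO replicate 3 closest (log2 fold change 0.53 ± 0.12, adjusted p = 0.0237, edgeR). Orc2, of the same complex, rose by 0.51, the helicase loaders Cdc6 and Cdt1 by 0.45 and 0.34, and Gmnn, which encodes the CDT1 inhibitor geminin, by 0.51. Their adjusted p were 0.0293, 0.0244, 0.0466 and 0.0344 in edgeR. Loaders and their inhibitor were thus higher side by side. Orc1 had 19.7, 20.4 and 16.5 CPM with CKBA, against 15.7, 15.4 and 17.9 CPM with DMSO, and did not pass (0.20 ± 0.13, adjusted p = 0.307, edgeR). Of the 50-base words in Orc2 transcripts, 26.7% also occur in Nif3l1, which lies on the opposite strand, and whether the libraries kept strand was not given.

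Of the genes that switch on the helicase or travel with the fork, 3 of 6 rose, with a median of 0.38. Mcm10, which helps the helicase to open (ENSMUSG00000026669, chromosome 2, 4989714 to 5012791, minus strand), had 61.8, 61.5 and 65.5 CPM with CKBA, against 38.9, 40.6 and 50.6 CPM with DMSO. Here CKBA replicate 3 was the highest library, unlike in most members (0.54 ± 0.11, adjusted p = 0.017, edgeR). Cdc45, the helicase cofactor, rose by 0.41 and Gins2 by 0.37 (adjusted p = 0.0414 and 0.0475, edgeR). Neither passed by limma on FPKM (0.0618 and 0.0646 for Cdc45, 0.064 and 0.0652 for Gins2). Without a filter on low counts Gins2 did not pass either (0.0663, edgeR). The other 3 GINS genes did not pass: Gins4 at 0.39 ± 0.12, Gins1 at 0.30 ± 0.19 and Gins3 at 0.24 ± 0.14. Gins4 had an adjusted p of 0.0639 in edgeR. It passed with the replicate number as a block (0.0475), without a filter on low counts (0.048) and without CKBA replicate 3 (0.00668), all edgeR. It also passed in DESeq2 (0.0473). With both replicates 3 left out, its adjusted p was 4.42e-11 (edgeR), where scatter comes only from the close replicates 1 and 2. Gins4 did not pass with RLE size factors (0.0654, edgeR), by limma on FPKM (0.0737 and 0.0766) or without any other 1 library (0.0508 to 0.228, edgeR). Its FDR in the authors' deposited table was 0.0886. Gins3 had 17.3, 16.4 and 19.97 CPM with CKBA, against 15.03, 13.4 and 17.0 CPM with DMSO, which overlapped. Both libraries numbered 3 were the highest of their group for Gins3, so that its pair 3 difference of 0.23 was close to those of pairs 1 and 2, 0.20 and 0.29. For Gins2, 65.4% of 50-base words also occur in Gse1 on the opposite strand.

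Among the polymerases, the clamp, its loader and lagging-strand factors, 11 of 15 rose, with a median of 0.44. Rfc4, a subunit of the clamp loader (ENSMUSG00000022881, chromosome 16, 23113943 to 23127737, minus strand), changed most of all 38 genes. It had 40.3, 37.7 and 29.5 CPM with CKBA, against 20.3, 19.3 and 20.9 CPM with DMSO. The groups were well apart, since even the lowest CKBA library was above the highest DMSO library by more than the whole DMSO range (0.83 ± 0.13, adjusted p = 0.00621, edgeR). Of its 50-base words, 9.14% also occur in Eif4a2 on the opposite strand. The clamp gene Pcna (ENSMUSG00000027342, chromosome 2, 132249162 to 132253314, minus strand) had 472, 464 and 369 CPM with CKBA, against 313, 311 and 336 CPM with DMSO. Its groups did not overlap (0.44 ± 0.10, adjusted p = 0.0256, edgeR). Pcna also had the highest level per length of the 38, 180.4 ± 21.5 FPKM with CKBA and 133.9 ± 8.79 FPKM with DMSO (SD, n = 3 each). Of its 50-base words, 19.1% also occur in the pseudogene Pcna-ps2.

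The promoter of Rfc4 is shown as that of the member with the largest change. It lies at chr16:23127681-23127980 (minus strand) and holds 1 match to the E2F core, in capitals, that begins 11 bases after the start site.
Rfc4: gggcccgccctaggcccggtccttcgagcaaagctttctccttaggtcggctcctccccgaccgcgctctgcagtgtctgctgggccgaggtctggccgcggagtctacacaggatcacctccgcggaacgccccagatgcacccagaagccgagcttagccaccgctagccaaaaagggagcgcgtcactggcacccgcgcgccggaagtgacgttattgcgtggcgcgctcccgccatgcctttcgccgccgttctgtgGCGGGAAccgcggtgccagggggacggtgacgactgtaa

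The catalytic subunits of all 3 replicative polymerases rose: Pola1 by 0.63, Pold1 by 0.57 and Pole by 0.46, at adjusted p of 0.0134, 0.0161 and 0.0259 (edgeR). So did the primase gene Prim1 by 0.49, Lig1, the ligase that joins Okazaki fragments, by 0.61, and Rpa2, of the single-strand binding protein, by 0.48 (adjusted p = 0.0232, 0.0124 and 0.0202, edgeR). Differences between loader genes were not tested. Beside Rfc4, Rfc5, Rfc2 and Rfc1 rose by 0.41, 0.39 and 0.30 (adjusted p = 0.0471, 0.0236 and 0.0494, edgeR), and Rfc3 did not pass at 0.28 ± 0.17. Pola2, the accessory subunit of polymerase alpha, had 90.4, 89.8 and 76.8 CPM with CKBA, against 75.2, 69.5 and 79.1 CPM with DMSO. CKBA replicate 3 was below DMSO replicate 3, and Pola2 did not pass (0.20 ± 0.09, adjusted p = 0.183, edgeR), unlike its partner Pola1, though the difference between the partners was not tested. Rpa1 stood at 0.27 ± 0.09 with an adjusted p of 0.0905 in edgeR. It passed with the replicate number as a block (0.0466) and without DMSO replicate 3 (0.0169), both edgeR. No other fit that left out 1 library called it (up to 0.291, edgeR). With both replicates 3 left out, its adjusted p was 1.59e-12 (edgeR), where scatter comes only from the close replicates 1 and 2. Fen1, the flap endonuclease, had the lowest level per length of the 38, 3.96 ± 0.24 FPKM with CKBA and 3.36 ± 0.65 FPKM with DMSO (SD, n = 3 each), and did not pass. Of its 50-base words, 76.7% also occur in genes on the opposite strand, Gm10143 and Tmem258, so its level is uncertain.

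Nucleotide supply genes and Uhrf1 were higher with CKBA, with 4 of 5 called and a median of 0.47. Rrm1, the large subunit of ribonucleotide reductase (ENSMUSG00000030978, chromosome 7, 102441695 to 102469771, plus strand), had 333, 314 and 261 CPM with CKBA, against 223, 216 and 249 CPM with DMSO. Its groups were separate, by a small gap between both libraries numbered 3 (0.40 ± 0.11, adjusted p = 0.0384, edgeR). Rrm2, the small subunit, whose transcript is made mostly in S phase (ENSMUSG00000020649, chromosome 12, 24708241 to 24714146, plus strand), had 243, 249 and 188 CPM with CKBA, against 156, 153 and 189 CPM with DMSO. CKBA replicate 3 was just below DMSO replicate 3, so the groups overlapped. The estimate for Rrm2 was 0.45 ± 0.13 with an adjusted p = 0.0513, just outside the threshold, and 0.0952 with the replicate number as a block (edgeR's quasi-likelihood test). Rrm2 passed without a filter on low counts (0.0185), without CKBA replicate 3 (0.00596), without DMSO replicate 3 (0.0217) and with both left out (9.02e-35), all edgeR, and in DESeq2 (0.0141). In the authors' deposited table the FDR of Rrm2 was 0.0201. Per length both subunits stood at like levels, Rrm1 at 75.3 ± 8.20 FPKM and Rrm2 at 81.3 ± 11.1 FPKM with CKBA, against 57.7 ± 5.60 FPKM and 60.3 ± 8.61 FPKM with DMSO (SD, n = 3 each).

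Tyms, thymidylate synthase (ENSMUSG00000025747, chromosome 5, 30058202 to 30073617, minus strand), had 57.3, 57.6 and 45.5 CPM with CKBA, against 31.7, 30.7 and 38.6 CPM with DMSO. Its groups did not overlap, and among these 5 genes it had the largest estimate (0.67 ± 0.13, adjusted p = 0.0138, edgeR). Tk1, the thymidine kinase of the salvage route, rose by 0.47, and Uhrf1, which brings the methyltransferase DNMT1 to newly copied DNA, by 0.47 (adjusted p = 0.0381 and 0.0315, edgeR). Within pair 3 the 5 genes differed by 0.07 for Rrm1, -0.01 for Rrm2, 0.24 for Tyms, 0.26 for Tk1 and 0.07 for Uhrf1, where pairs 1 and 2 gave 0.54 to 0.91. The promoter of Rrm1, the reductase gene that passed the test, lies at chr7:102441445-102441744 (plus strand). It holds 1 match to the E2F core, in capitals, that begins 67 bases before the start site, between 2 CCAAT boxes.
Rrm1: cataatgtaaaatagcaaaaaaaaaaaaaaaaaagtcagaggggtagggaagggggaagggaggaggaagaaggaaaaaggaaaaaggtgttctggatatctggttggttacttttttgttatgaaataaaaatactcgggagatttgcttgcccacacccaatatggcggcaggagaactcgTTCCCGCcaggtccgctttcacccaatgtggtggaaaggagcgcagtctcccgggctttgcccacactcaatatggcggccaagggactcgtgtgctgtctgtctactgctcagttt

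**Figure D4:**
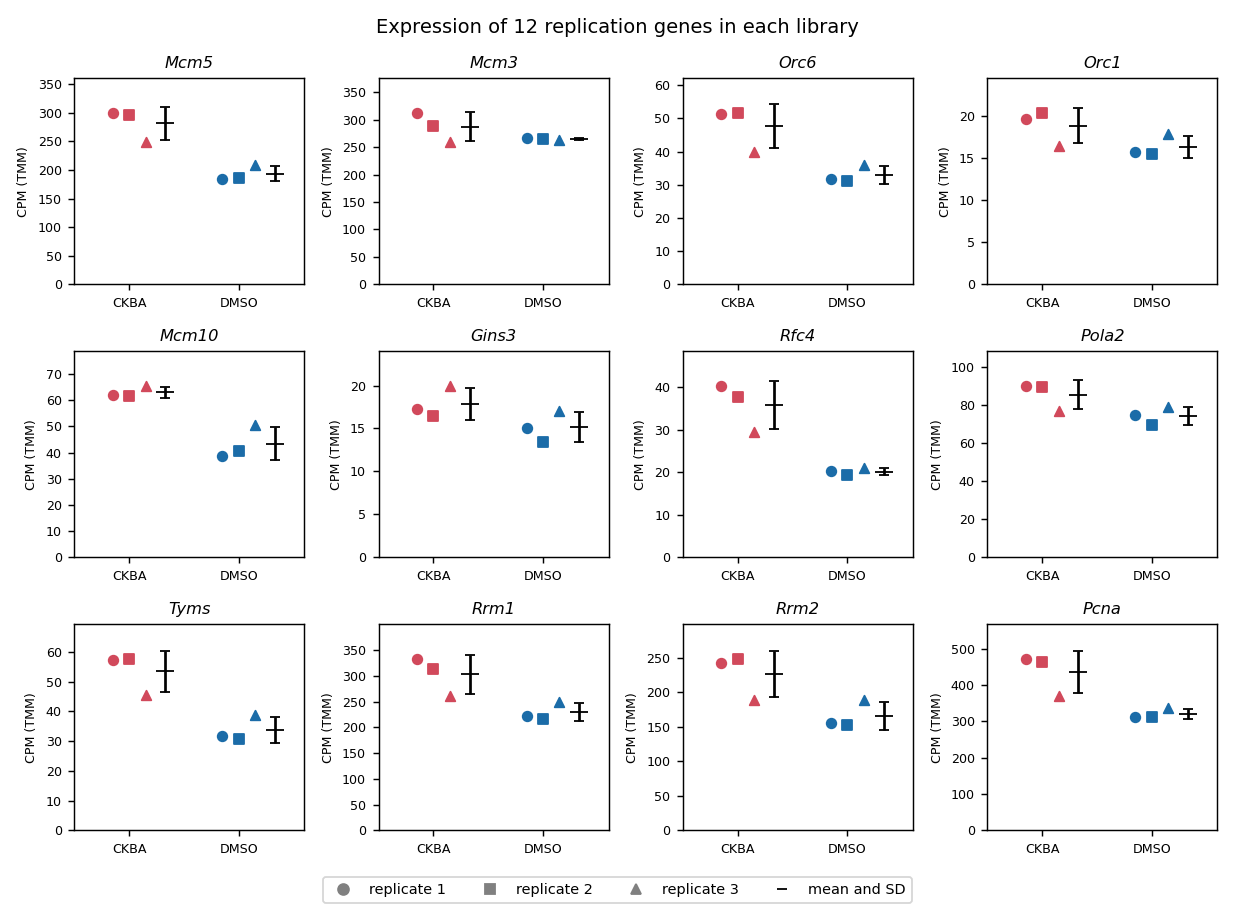
Expression in CPM after TMM scaling (vertical axes, from 0) of 12 genes in the 3 CKBA and 3 DMSO libraries, with symbols for the replicate number and bars for mean and SD. In Mcm5, Orc6, Mcm10, Rfc4, Tyms, Rrm1 and Pcna all CKBA points lie above all DMSO points, and in Mcm3, Orc1, Gins3, Pola2 and Rrm2 they overlap.

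Promoter sequence was compared over the genes with an entry in the RefSeq table, 31 of the 38. The E2F core was found in 20 of these 31 genes (64.5%), in 19.7% of 9606 tested genes with an entry and in 10.9% of all 27025. At least 2 matches in 1 window were found in 29.0% of the 31, against 2.77% of the tested genes. The CCAAT box was found in 67.7%, against 42.9%, and the CHR element TTTGAA, of many mitotic genes, in 12.9%, against 14.2%, all on both strands. Mean GC content was 58.2% in the promoters of the 31 genes and 60.8% in those of the tested genes. The median log2 fold change was 0.42 in the 20 members with it and 0.44 in the 11 without it. A match of letters is a description and shows no binding.

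Other genes of replication and S phase were read from a list of 63, all of which were tested. Of these 24 rose, 1 fell and 38 did not pass, where 7.86% of all genes were called higher and 9.23% lower. The list's median was 0.34 on the log2 scale. Called higher were 5 without CKBA replicate 1, 5 without CKBA replicate 2, 1 without DMSO replicate 1 and 1 without DMSO replicate 2. Over all genes, 2.42%, 2.42%, 1.88% and 1.76% were called higher in these fits. At an unadjusted p under 0.05 by edgeR, 31, 32, 37 and 33 genes of the list were higher. A share of all genes at that unadjusted threshold was not computed. With replicates 1 and 2 summed, 0 were called by edgeR, where 16 had an unadjusted p under 0.05 and 0.372% of all genes were called higher. Timeless, which encodes a protein that protects moving forks, had 112, 115 and 123 CPM with CKBA, against 58.7, 59.3 and 81.4 CPM with DMSO. The groups were far apart, with the largest estimate of the list (0.81 ± 0.13, adjusted p = 0.00737, edgeR), and the call held in each fit that left out 1 library (up to 0.044). Chaf1b, a subunit of the chromatin assembly factor, rose by 0.70, the origin-firing kinase gene Cdc7 by 0.64, the helicase gene Recql4 by 0.64 and the exonuclease gene Exo1 by 0.58. Their adjusted p were 0.00942, 0.0101, 0.00954 and 0.00787 in edgeR. Cdc7, Recql4, Chaf1b and Exo1 lost the call without 1 or more of replicates 1 and 2, where edgeR's adjusted p reached 0.0579.

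The 1 gene of this list that fell was Samhd1, which encodes an enzyme that breaks down deoxynucleotides, the products of ribonucleotide reductase. It had 547, 541 and 614 CPM with CKBA, against 838, 877 and 934 CPM with DMSO. All CKBA libraries were below all DMSO libraries, which held for 18.4% of all genes (-0.64 ± 0.08, adjusted p = 0.00285, edgeR). Samhd1 differed by like amounts in all pairs, by -0.62, -0.70 and -0.61 in pairs 1, 2 and 3, and its call held in each fit that left out 1 library (adjusted p of up to 0.0241, edgeR). With replicates 1 and 2 summed it was not called (0.124, edgeR). Donson, a fork protection gene with the second lowest estimate of the list, did not pass (-0.20 ± 0.09, adjusted p = 0.156, edgeR).

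Genes of mitosis, another group that dividing cells use, are set beside the replication genes. Of 35 tested, 18 rose and 0 fell, where 7.86% of all genes were called higher and 9.23% lower. The median log2 fold change of the mitosis genes was 0.35. Their mean differences in pairs 1, 2 and 3 were 0.47, 0.49 and 0.08, against 0.56, 0.54 and 0.15 for the 38 replication genes. Whether both groups of genes differ was not tested. Of the mitosis genes, 2 were called higher without CKBA replicate 1, 1 without CKBA replicate 2 and 1 without DMSO replicate 1. None, 0, were called without DMSO replicate 2, and 0 with replicates 1 and 2 summed. Over all genes, 2.42%, 2.42%, 1.88%, 1.76% and 0.372% were called higher in these fits, in the same order. At an unadjusted p under 0.05 by edgeR, 25 were higher with all 6 libraries in the fit, 19 without DMSO replicate 2 and 11 with the summed replicates. A share of all genes at that unadjusted threshold was not computed.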

How the data were processed

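The authors deposited 1 table of estimated counts for each gene in each library. The submitters' processing notes name RSEM (no version), CASAVA 1.8 and the GRCm38 build. All estimated counts were whole as deposited, and the aligner and annotation release were not given in the sources used here. Per the labels' protocols, RNA was extracted with TRIzol and prepared with the TruSeq kit. The authors' FPKM per library gave levels per length. The authors' log2 fold changes and adjusted p-values, from edgeR per the submitters' processing notes, were used only where their deposited table is named.

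Counts were fitted over the whole table with edgeR 4.0.16 in R 4.3.3 (TMM, filterByExpr, robust quasi-likelihood F test, Benjamini-Hochberg adjustment, threshold 0.05) for 3 CKBA against 3 DMSO libraries. Log2 fold changes are CKBA over DMSO with SE, computed from the estimate and F. The fit was tested on simulated data with independent libraries, which do not mimic the closeness of replicates 1 and 2. Pair differences use log2 CPM with a prior count of 0.5. Libraries were paired by equal replicate number, though the labels do not say that these numbers mark a shared culture, animal or batch. Deviations from the group means correlated within pairs 1, 2 and 3 (r = 0.24, 0.24 and 0.44). Replicates 1 and 2 crossed correlated as well (0.23 and 0.24), so these values cannot show which of them belong together. Alternatives were RLE size factors, DESeq2 1.42.0, no filter, limma 3.58.1 on log2(FPKM + 0.1) and log2(FPKM + 1), the replicate block, left-out libraries, summed replicates 1 and 2 and, added after seeing the data, scaling to total counts. Totals of 19838347 to 25331863 counts limit precision. The SE of a fold change includes the scatter between libraries, and the SE of a single pair difference covers counting error only.

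The 38 members, the lists and the tests were chosen with earlier results of these data known. Values in every library are given, in each role group, for the called gene with the smallest adjusted p and for the largest and smallest log2 fold change, and for Rrm1, Rrm2, Mcm5 and Pcna. From the other replication genes the 6 smallest adjusted p and the 2 lowest estimates were named. Of the listed symbols 1, Knl1, was not matched. Positions are from GENCODE M21 (GRCm38). Words of 50 bases of each member's transcripts were searched in all other genes' transcripts, on both strands.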

Additional observations from a re-analysis of the deposited data

How the results depend on the processing

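All 38 member estimates stayed above 0 in each of the 15 alternatives. The number of members called higher was 28, and ranged from 1 to 30 when 1 library was left out. At an unadjusted p under 0.05 by edgeR, 29 to 36 were higher in those fits. No share of all genes was computed at an unadjusted p. The number called was 16 and 16 by limma on log2(FPKM + 0.1) and log2(FPKM + 1). It was 0 with replicates 1 and 2 summed, where 15 had an unadjusted p under 0.05 by edgeR. The cause was not tested. With the replicate block it was 30, and the block changed no member's call except Gins4 and Rpa1, which then passed. Without replicate 3 of both groups the median log2 fold change was 0.56 instead of 0.41.

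Of the other replication and S phase genes, 24 were higher. The range was 1 to 37 with 1 library left out, with 50 without both replicates 3 and 0 with summed replicates, where 16 had an unadjusted p under 0.05 by edgeR. The 1 lower gene was not called in that summed fit either, with 0 called and 1 at an unadjusted p under 0.05. Of the mitosis genes 18 were higher, with 0 to 25 when 1 library was left out, 34 without both replicates 3 and 0 with summed replicates. At an unadjusted p under 0.05 by edgeR, 19 were higher without DMSO replicate 2, which gave the 0, and 11 in the summed fit. For these unadjusted counts no share of all genes was computed. Over all genes, 1095 were higher and 1286 lower. With 1 library left out, 251 to 1961 were higher and 390 to 2015 lower. Higher and lower counts were 1922 and 2010 with the replicate block, 3660 and 3728 without both replicates 3, and 56 and 54 with summed replicates.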

Other observations

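Some members share transcript sequence with neighbours or a pseudogene. The values of some such genes, chosen after their values were seen, stand beside them here. Tmem258, which overlaps Fen1 on the opposite strand, had 45.5, 38.6 and 36.7 CPM with CKBA, against 34.6, 43.0 and 36.5 CPM with DMSO. Gm10143, an antisense gene there, had 15, 19 and 27 counts with CKBA, against 14, 8 and 26 counts with DMSO. Fen1 itself had 212, 190 and 236 counts with CKBA, against 158, 137 and 203 with DMSO. Tmem258 and Gm10143 were estimated at 0.08 and 0.22 on the log2 scale, and Fen1 at 0.25. Gse1, opposite Gins2, was estimated at -0.10, where Gins2 rose by 0.37. Nif3l1, opposite Orc2, was estimated at 0.28, and the pseudogene Pcna-ps2 at 0.30, where Orc2 rose by 0.51 and Pcna by 0.44. Neither Nif3l1 nor Pcna-ps2 passed (adjusted p = 0.101 and 0.415, edgeR). The part of shared reads in the members' values was not tested. In all, 8 of the 38 genes share over 10% of their 50-base words with another gene.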
